A study of Mus musculus with 4 samples.

Results

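The RNA of 10 genes of the immunoglobulin superfamily that code for neural adhesion molecules was followed in enteric neural crest cells of mouse embryos: Ncam1, L1cam, Nrcam, Nfasc, Chl1, Cadm1, Cadm3, Cntn1, Cntn2 and Alcam. They were taken by symbol from the deposited table, with 1 row for each Entrez identifier, and all 10 were found among its 27178 genes. Both groups came from Wnt1-tdT mice, as embryos of 11.5 days post coitum, in which a red fluorescent reporter marks the neural crest lineage. The wavefront group (2 libraries) held reporter-positive cells of the gut tissue at the leading edge of their migration. The trailing group (2 libraries) held such cells from 1 to 1.5 mm behind that edge. The question was how the RNA of the leading cells differs from that of the cells that follow. The labels do not say whether the 2 libraries of a group came from different embryos, and the spread behind every p-value here is that between these libraries, which could be technical.

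Immunoglobulin-family adhesion molecules are cell surface proteins whose extracellular immunoglobulin domains bind the same molecule, or a related one, on a neighbouring cell. In the nervous system they hold axons in bundles, guide growth cones and join axons to glia. Enteric neural crest cells migrate down the gut as chains of cells in contact with one another, and L1cam is known to take part in that migration in the mouse. Ncam1, L1cam, Nrcam, Nfasc, Chl1, Cadm1, Cadm3 and Alcam are known chiefly as transmembrane proteins, and the contactins Cntn1 and Cntn2 are held in the membrane by a lipid anchor.

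L1cam, Nrcam, Nfasc and Chl1 form the L1 family, whose short cytoplasmic tails bind ankyrin, the link to the spectrin skeleton under the membrane. Their coding sequences around the ankyrin-binding motif are shown because this site defines the family and sets these 4 genes apart from the other 6. The 15 bases in capitals are the codons of the motif, and bases in lower case flank it.
L1cam: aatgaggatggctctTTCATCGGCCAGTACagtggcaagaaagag
Nrcam: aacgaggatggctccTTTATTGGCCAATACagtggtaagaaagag
Nfasc: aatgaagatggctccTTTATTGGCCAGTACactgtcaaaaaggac
Chl1: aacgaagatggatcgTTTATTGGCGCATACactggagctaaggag
Of the 15 motif bases, Nrcam and Nfasc shared 14, L1cam and Nfasc 13, Nrcam and Chl1 13, and L1cam and Chl1 10. On GRCm38 these stretches lie at chrX:73855107-73855151 on the minus strand for L1cam, chr12:44598471-44598515 on the plus strand for Nrcam, chr1:132570492-132570536 on the minus strand for Nfasc and chr6:103729234-103729278 on the plus strand for Chl1. Each falls in a single coding exon of the longest annotated coding transcript of GENCODE M21.

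Cadm1 and Cadm3, the synaptic cell adhesion molecules also called nectin-like proteins, end in a short motif that binds PDZ-domain scaffold proteins. The ends of their coding sequences are shown for the same reason, with the last 4 codons before the stop codon in capitals.
Cadm1: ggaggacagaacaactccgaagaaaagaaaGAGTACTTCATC
Cadm3: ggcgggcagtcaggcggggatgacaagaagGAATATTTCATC
They shared 10 of these 12 bases. The Cadm1 stretch lies at chr9:47850346-47850387 on the plus strand and the Cadm3 stretch at chr1:173337024-173337065 on the minus strand, both in 1 coding exon on GRCm38. Reads were counted per gene, so the levels below do not tell the transcripts of a gene apart.

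The libraries were shallow. Recovered reads, counted once per gene, came to 535636 and 258457 in the wavefront libraries and 511074 and 447224 in the trailing libraries. Wavefront replicate 2 stood apart: ribosomal RNA took 55.5% of its reads, against 15.6 to 26.1% in the other libraries, which left it 114972 reads outside ribosomal RNA. Scaled CPM below are recovered reads as CPM of the library total after TMM scaling, which sets libraries to a common level over most genes. The 10 listed markers of enteric crest cells, Ret and Sox10 among them, all had reads in 3 libraries and 8 of 10 had reads in wavefront replicate 2. A gene was called where its p, adjusted by Benjamini-Hochberg over all genes tested, was under 0.05. Limma, run on log2(CPM + 1), called 0 of 12519 genes, and 858 were under 0.05 before adjustment. The quasi-likelihood test of edgeR on recovered reads, the count test below, called 100 of 5759, and 44 without trailing replicate 1 or 40 without trailing replicate 2.

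Cadm1 had the most reads and the highest level per length of the 10 genes in each of the 4 libraries, and Cadm1, Nfasc, L1cam, Ncam1 and Chl1 had lower values in both wavefront libraries than in both trailing libraries. None of the 10 passed the threshold in limma, edgeR or DESeq2, or by the authors' deposited p-values. The 10 genes were chosen with earlier results of these data known. Their counts set beside those of all genes below are thus a description only. Limma, in which all 10 were tested, called 0 of 10 against 0% of all genes, with 5 of 10 lower at an unadjusted p under 0.05, which 5.78% of all tested genes also were. The genes in that count changed with each library left out, and the count fell unless wavefront replicate 1 was the one left out. Such fits leave 1 library in a group, and the cause of the change was not tested. Log2 fold changes here are wavefront over trailing. With 1 library left out, limma gave -1.39 to -0.69 for Ncam1, -1.80 to -0.62 for L1cam and -1.90 to -0.98 for Cadm1. It gave -2.04 to -1.23 for Nfasc and -2.48 to -1.13 for Chl1, and the values of the other 5 genes crossed 0. In limma the median log2 fold change was -0.98 over the 10 genes, beside -0.35 over all genes tested, and 9 of the 10 lay below 0. Of these, Alcam, Cntn1 and Cntn2 had fewer than 15 reads each in all. After TMM scaling of the CPM 8 lay below 0 in limma, and 7 did in DESeq2. The filter of the count test was passed by 5 members, namely Cadm1, L1cam, Ncam1, Nrcam and Nfasc. It called 0 of these 5, where 1.74% of all tested genes were called, 1.34% as lower and 0.399% as higher, and 4 of the 5 were lower at an unadjusted p under 0.05, and with 1 library left out 3 or 4 of the 5 or 6 members then tested were. Among all genes tested by counts 5.92% were lower at that level. Of the 5 members, Nfasc would not have passed the filter on its wavefront reads alone (15 and 4). For a gene that passes through the trailing group, the filter favours a lower value. DESeq2 on the recovered reads gave an adjusted p for 5 members and called 0, with 1 at an unadjusted p under 0.05. Adjusted here, the Wald p-values in the authors' deposited table also called 0, with 1 at an unadjusted p under 0.05. Groups without overlap were found for 5 of the 10, all lower at the wavefront, and both wavefront libraries lay below both trailing ones for 23.2% of all genes tested by limma. In bulk RNA, fewer cells of a type and less RNA per cell cannot be told apart.

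**Figure D1:**
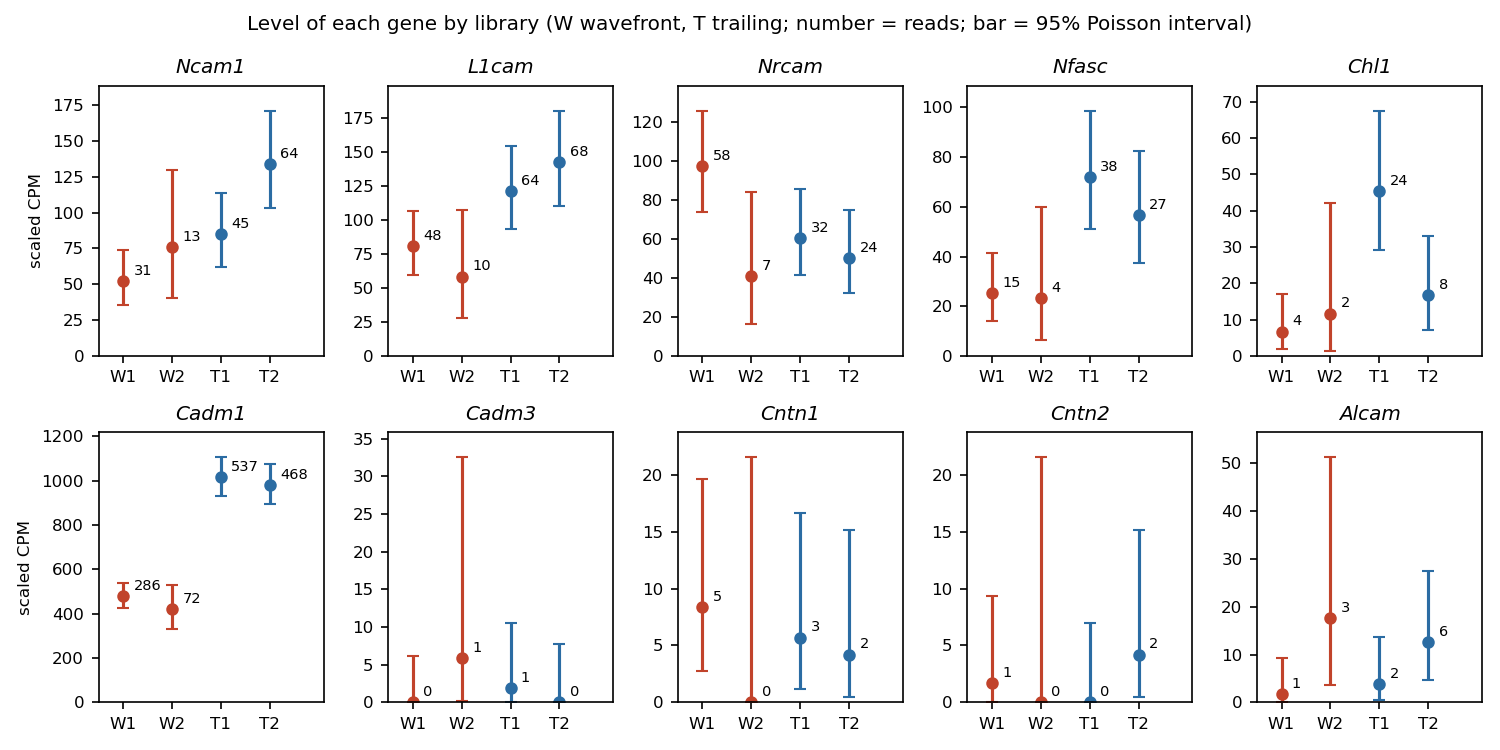
Scaled CPM (vertical axes, each from 0) of the 10 genes in wavefront libraries W1 and W2 (red) and trailing libraries T1 and T2 (blue), with the number of recovered reads beside each point and bars for the 95% exact Poisson interval, which covers counting error only. For Cadm1 the wavefront libraries sit at 480 and 421 and the trailing libraries at 1017 and 981, while Cadm3, Cntn1, Cntn2 and Alcam rest on 0 to 6 reads a library.

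Cadm1, which holds neighbouring cells together by binding itself or Cadm3 and is known for organizing synapses and contacts between axons and Schwann cells, had 286 and 72 reads at the wavefront against 537 and 468 in the trailing libraries. In scaled CPM these were 480 and 421 at the wavefront against 1017 and 981 behind it. The 2 wavefront libraries were close to each other, as were the 2 trailing libraries, and the groups did not overlap. Cadm1 averaged 450.5 ± 42.1 scaled CPM in wavefront cells and 999 ± 25.5 in trailing cells (SD, n = 2 each), a ratio of means of 0.451. The log2 fold change in the count test was -1.14 ± 0.35 (SE; 95% interval -1.85 to -0.43; edgeR, Benjamini-Hochberg adjusted p = 0.0921), and in limma -1.44 ± 0.58 (adjusted p = 0.68). In the authors' deposited table the log2 fold change of Cadm1 was -0.99 with an unadjusted p of 0.00117.

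The closeness of the wavefront libraries for Cadm1 depended on the scaling. As deposited, with ribosomal RNA in the total, Cadm1 had 527 and 277 CPM at the wavefront against 1039 and 1035 CPM behind it. As CPM of the reads outside ribosomal RNA it had 633 and 626 at the wavefront against 1389 and 1415 in the trailing libraries. The trailing libraries were above the wavefront libraries on each of these 3 scales. The gene spans chromosome 9, 47530173 to 47857637, on the plus strand of GRCm38.

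Nfasc codes for neurofascin, which gathers at the axon initial segment and at nodes of Ranvier. It had 15 and 4 reads at the wavefront against 38 and 27 in the trailing libraries, or 25.2 and 23.4 against 72.0 and 56.6 scaled CPM. The groups did not overlap, although the counting interval of wavefront replicate 2, 6.37 to 59.8 scaled CPM, reached into the trailing values. The log2 fold change was -1.37 ± 0.42 in the count test (95% interval -2.22 to -0.53; edgeR adjusted p = 0.0855) and -1.64 ± 0.47 in limma (adjusted p = 0.68). Nfasc spans chromosome 1, 132564690 to 132741797, on the minus strand.

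L1cam, the founding L1-family molecule and a growth-promoting receptor of axons, had 48 and 10 reads at the wavefront against 64 and 68 behind it. Its levels were 80.6 and 58.4 scaled CPM at the wavefront against 121 and 143 in the trailing libraries, without overlap. The log2 fold change was -0.84 ± 0.32 in the count test (95% interval -1.49 to -0.19; edgeR adjusted p = 0.289) and -1.21 ± 0.50 in limma (adjusted p = 0.68). L1cam lies on chromosome X, 73853778 to 73896105, minus strand. Its exons share 100 bases with those of Arhgap4, which had 1 read over the 4 libraries.

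Ncam1, the neural cell adhesion molecule that carries polysialic acid in migrating and growing cells, had 31 and 13 reads at the wavefront against 45 and 64 in the trailing libraries. In scaled CPM it had 52.1 and 76.0 at the wavefront against 85.2 and 134 behind it. The groups did not overlap, but wavefront replicate 2 lay nearer to trailing replicate 1 than the trailing replicates lay to each other. The log2 fold change was -0.88 ± 0.35 (95% interval -1.57 to -0.18; edgeR adjusted p = 0.316), and -1.04 ± 0.42 in limma (adjusted p = 0.68). Ncam1 spans chromosome 9, 49502136 to 49798925, on the minus strand, and an antisense gene on the other strand, Gm11149, shares 417 exon bases with it. Gm11149 had 8 reads over the 4 libraries. The library kit does not keep the strand, so reads of that stretch cannot be told apart.

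Chl1, the close homolog of L1, had 4 and 2 reads at the wavefront against 24 and 8 in the trailing libraries, too few for the count test. Its levels were 6.72 and 11.7 scaled CPM at the wavefront against 45.5 and 16.8 behind it, and the groups did not overlap. Pooled over the libraries of a group, the scaled ratio of wavefront to trailing reads was 0.246, with a 95% exact binomial interval of 0.0840 to 0.596 that covers counting error only. In limma the log2 fold change was -1.80 ± 0.65 (adjusted p = 0.68), and it was -1.13 without trailing replicate 1 and -2.48 without trailing replicate 2. The 2 trailing libraries differed from each other by more than trailing replicate 2 differed from the wavefront libraries.

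Nrcam was the member of the L1 family whose value in the count test lay above 0. Nrcam, which binds ankyrin as L1cam and Nfasc do and partners contactins on axons, had 58 and 7 reads at the wavefront against 32 and 24 in the trailing libraries. Its levels were 97.4 and 40.9 scaled CPM at the wavefront against 60.6 and 50.3 behind it. Wavefront replicate 1 was the highest of the 4 libraries and wavefront replicate 2 the lowest, so the groups overlapped. The log2 fold change was 0.52 ± 0.35 in the count test (95% interval -0.18 to 1.22; edgeR adjusted p = 0.7) and -0.09 ± 0.67 in limma (adjusted p = 0.988). Without wavefront replicate 1 the count test gave -0.44, and without wavefront replicate 2 it gave 0.86 (edgeR adjusted p = 0.885 and 0.264). Whether the fold change of Nrcam differs from those of the other L1-family genes was not tested.

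**Figure D2:**
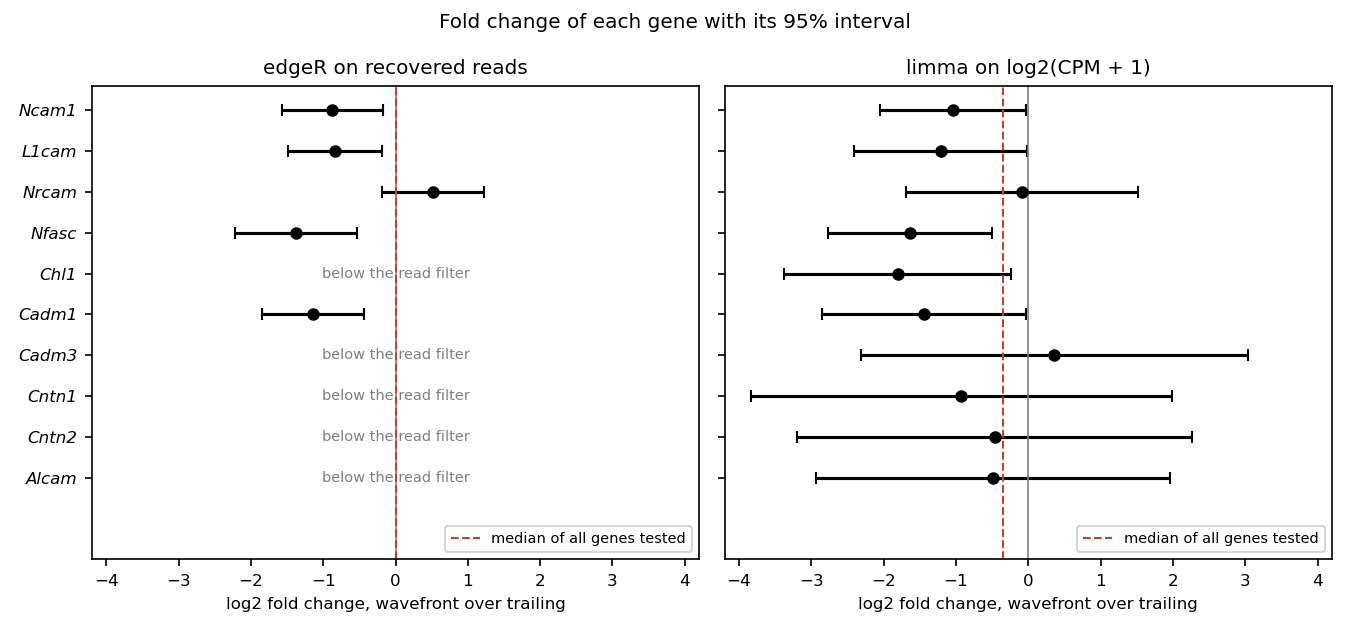
Log2 fold change of each gene, wavefront over trailing (horizontal axes), with its 95% interval in edgeR on recovered reads (left) and in limma on log2(CPM + 1) (right); the dashed line is the median of all genes tested and 5 genes were below the read filter of edgeR. The intervals of Ncam1, L1cam, Nfasc and Cadm1 lie below 0 in both panels and that of Nrcam spans 0 in both, while no gene passed after adjustment over all genes. In the right panel the intervals of Ncam1, L1cam, Cadm1 and Chl1 span the dashed line at -0.35, and that of Nfasc lies below it.

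The remaining 4 members were near the limit of detection, with fewer than 15 reads each over all libraries. Alcam, an adhesion molecule that binds itself and the lymphocyte receptor CD6, had 1 and 3 reads at the wavefront against 2 and 6 in the trailing libraries. The pooled scaled ratio of wavefront to trailing reads of Alcam was 0.656 (95% exact binomial interval 0.144 to 2.45), so no difference was detectable at this depth. Cntn1, which with its partners binds neurofascin at the contact of axon and glia, had 5 and 0 reads at the wavefront against 3 and 2 behind it, a scaled ratio of 1.31 (0.302 to 5.70). Cntn2, the axonal contactin also called TAG-1, had 1 and 0 reads at the wavefront against 0 and 2 behind it. Cadm3, a partner of Cadm1 on axons, had 0 and 1 reads at the wavefront against 1 and 0 behind it. For Cntn2 and Cadm3 both groups were at or under the floor of 3 reads and no pooled ratio is given. The limma fold changes of Cntn2 and Cadm3, shown elsewhere here, rest on 3 and 2 reads over all libraries. A library at 0 reads allows up to 3 reads, or 5.52 and 11.5 deposited CPM in the wavefront libraries and 5.80 and 6.64 in the trailing libraries. This floor is a one-sided bound, and the two-sided 95% Poisson bars in the plot of values by library reach higher at 0 reads. In limma these 4 genes had adjusted p-values of 0.876 to 0.962.

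Compared per length, Cadm1 stood first in both groups. In scaled CPM per kilobase of annotated exon it had a level of 43.2 ± 4.04 at the wavefront and 95.7 ± 2.45 behind it (SD, n = 2 each). This placed it at the 94.6th percentile of 13430 genes with a read and an annotated length at the wavefront and at the 97.7th in trailing cells. At the wavefront L1cam (9.46 ± 2.13), Ncam1 (7.39 ± 1.95) and Nrcam (5.18 ± 2.99) followed in scaled CPM per kilobase, where the libraries of L1cam overlapped those of Ncam1, and those of Ncam1 overlapped those of Nrcam. Nfasc (1.72 ± 0.0909), Alcam (1.35 ± 1.57) and Chl1 (0.749 ± 0.286) came next at the wavefront, and Cntn1, Cadm3 and Cntn2 stayed under 0.5 scaled CPM per kilobase on average. In trailing cells the order was L1cam (17.9 ± 2.05), Ncam1 (12.7 ± 3.99), Nfasc (4.54 ± 0.769), Nrcam (4.15 ± 0.545), Chl1 (2.53 ± 1.65) and Alcam (1.15 ± 0.873). The trailing libraries of Nfasc and Nrcam overlapped in level, and those of L1cam and Ncam1 did not. By their means Nfasc and Nrcam stood in opposite order in the 2 groups.

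Ratios of 2 genes within a library do not depend on how libraries are scaled. Nrcam had 3.87 reads for each Nfasc read in wavefront replicate 1 (95% exact binomial interval 2.16 to 7.35) and 1.75 in wavefront replicate 2 (0.445 to 8.15). In trailing replicates 1 and 2 this ratio was 0.842 (0.509 to 1.38) and 0.889 (0.491 to 1.60). Wavefront replicate 1 lay above both trailing intervals, and wavefront replicate 2, with 11 reads of the pair, could not be told from either side. Set against Cadm1, Nrcam had 0.203 and 0.0972 reads for each Cadm1 read at the wavefront and 0.0596 and 0.0513 behind it. For this ratio the 95% exact binomial interval of wavefront replicate 2, 0.0377 to 0.211, took in both trailing values. The ratio of L1cam to Cadm1 was 0.168 and 0.139 at the wavefront and 0.119 and 0.145 in the trailing libraries, so the groups overlapped.

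The 10 genes together had 449 and 112 reads at the wavefront and 746 and 669 reads behind it. Cadm1 made up 63.7% and 64.3% of them at the wavefront (95% exact binomial intervals 59.1 to 68.2% and 54.7 to 73.1%) and 72.0% and 70.0% in the trailing libraries (68.6 to 75.2% and 66.3 to 73.4%). Nrcam made up 12.9% and 6.25% at the wavefront and 4.29% and 3.59% behind it, and the interval of wavefront replicate 2, 2.55 to 12.5%, took in both trailing shares. The shares of L1cam overlapped between the groups, with 10.7% and 8.93% at the wavefront and 8.58% and 10.2% in the trailing libraries. Reads carry no molecular identifiers, so these intervals cover counting error only.

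**Figure D3:**
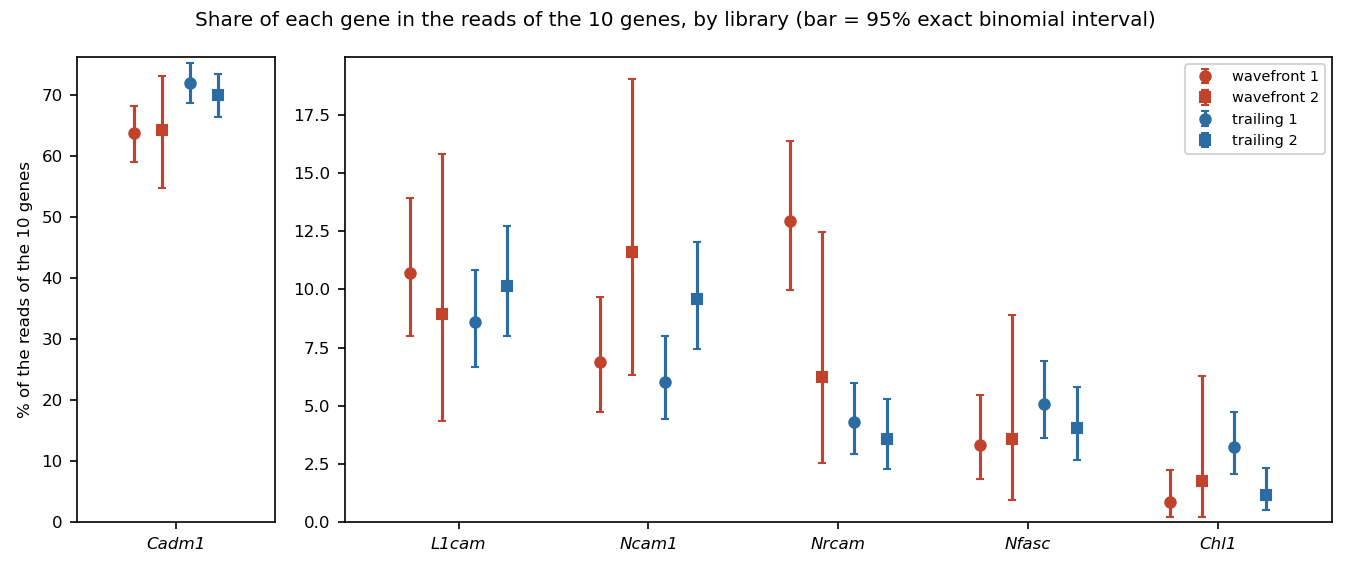
Share of each gene in the reads of the 10 genes, in percent (vertical axes), for wavefront replicates (red) and trailing replicates (blue), with circles for replicate 1, squares for replicate 2 and bars for the 95% exact binomial interval. Cadm1 takes 63.7% and 64.3% at the wavefront and 72.0% and 70.0% behind it, and the Nrcam share of wavefront replicate 1, 12.9%, is above those of the trailing libraries.

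Listed neuronal markers had less RNA in sum in the wavefront libraries. The marker lists were chosen with earlier results of these data known, so they are a description only. The 16 listed markers of enteric neurons, Elavl4 and Tubb3 among them, summed to 924 and 742 scaled CPM at the wavefront against 3858 and 4087 behind it. In the count test, which called 1.34% of all genes as lower, 15 of the 16 fell and 1 did not pass, and 9 fell without wavefront replicate 1 or without trailing replicate 2. Limma called 0 of the 16, with all 16 below 0, while DESeq2 called 8 and the authors' deposited p-values called 7. The listed glia and Schwann precursor markers summed to 67.2 and 81.8 scaled CPM at the wavefront against 163 and 182 behind it, with S100b at 0 in all libraries. The 10 enteric crest markers summed to 3930 and 1946 scaled CPM at the wavefront against 3280 and 2471 behind it, and the groups overlapped. Gut mesenchyme markers summed to 413 and 929 scaled CPM at the wavefront against 189 and 193 behind it, where Twist1 and Tbx18 were at 0 in all libraries. The count test called 2 of 3 tested mesenchyme markers as higher, where 0.399% of all genes tested were. It called 1 of 7 tested crest markers and 1 of 2 tested glia and Schwann precursor markers as lower. Limma called 0 in each of these lists. Gut epithelium markers summed to 25.2 and 52.6 scaled CPM at the wavefront against 7.58 and 6.29 behind it, on 15 and 9 reads against 4 and 3, with Sox17 and Foxa1 at 0 in all libraries. Endothelium markers summed to 47.0 and 52.6 scaled CPM at the wavefront against 34.1 and 33.5 behind it. Mesothelium and leukocyte markers had 0 to 2 reads a library. Erythroid markers had 1 and 110 reads at the wavefront against 2 and 0 behind it. The part of these cell types in the values of the adhesion genes was not tested.

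The 2 members with the most reads, Cadm1 and L1cam, were matched to the genes with the nearest profile over the 4 libraries, by Euclidean distance of centred log2(scaled CPM + 1) among 2769 genes with a mean of at least 50 scaled CPM. Nearest to Cadm1 were Tspan7, a tetraspanin (distance 0.107), Ndn, the imprinted gene of necdin (0.138), and Cthrc1, a secreted protein with a collagen-like repeat (0.151). Tspan7 had 36.9 and 29.2 scaled CPM at the wavefront against 75.8 and 75.4 behind it. Nearest to L1cam were C1d (0.0852), Psma4, a proteasome subunit (0.175), and a row without a gene symbol (0.179). With 4 libraries many genes share such a profile, and these names are a description only.

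The wider set of genes around these molecules was given from lists, of which 1 gene passed the count test. Among 38 other immunoglobulin-family adhesion genes, 5 were tested by counts and 0 passed, and limma called 0 of 20. In that list the most reads fell on Mcam, an adhesion molecule also known as CD146, which had a value of -0.23 ± 0.31 on the log2 scale (edgeR adjusted p = 0.89), on Igsf3 (-0.11 ± 0.34, adjusted p = 0.962) and on Jam3, a junctional adhesion molecule (-0.17 ± 0.35, adjusted p = 0.937). Over the 5 genes of this list tested by counts the median log2 fold change was -0.11, beside 0.01 over all genes tested by counts.

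Among 16 extracellular partners of the family, 7 were tested by counts and 0 passed, with 6 of the 7 above 0, and limma called 0 of 11. Itgb1, the integrin beta 1 chain that L1cam can engage, had 633 ± 119 scaled CPM at the wavefront and 366 ± 46.9 behind it (SD, n = 2 each; edgeR adjusted p = 0.375). Cd24a, a small glycoprotein that binds L1cam, was at 909 ± 458 and 596 ± 102 scaled CPM (edgeR adjusted p = 0.609) in the same order of groups. Nrp1, a semaphorin receptor that pairs with L1cam, had 694 ± 172 scaled CPM at the wavefront and 669 ± 26.7 behind it (log2 fold change 0.07 ± 0.35). The median log2 fold change of the 7 genes tested by counts was 0.63 in edgeR and 0.24 in limma, where 5 of the 7 lay above 0. Over all 11 genes that limma tested, the low-read ones included, the median in limma was -0.26.

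Of 24 membrane skeleton and scaffold adaptors, 14 were tested by counts, 1 fell and 13 did not pass, and limma called 0 of 23. The gene that fell was Dcx, doublecortin, a microtubule-associated protein of young neurons that also binds neurofascin. Dcx had 2 and 0 reads at the wavefront against 17 and 25 behind it, a scaled ratio of wavefront to trailing reads of 0.0624 (95% exact binomial interval 0.00732 to 0.240; edgeR adjusted p = 0.00116). Without trailing replicate 2 its adjusted p was 0.231 (edgeR), and in the authors' deposited table Dcx did not pass after adjustment. Dcx also stands in the list of enteric neuron markers. It passed the filter of the count test through its trailing reads alone, and for such a gene the filter favours a lower value. Gap43, a growth cone protein, had 350.1 ± 48.8 scaled CPM at the wavefront and 463 ± 71.2 behind it (edgeR adjusted p = 0.795), and Sdcbp, the PDZ scaffold syntenin, 274 ± 56.8 and 283 ± 11.8 (edgeR adjusted p = 0.996).

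Enzymes that modify or cut these proteins were tested too. Of 8 genes for polysialic acid and related glycans, 1 was tested by counts and 0 passed, and limma called 0 of 5. That gene was St8sia2, a polysialyltransferase that acts on Ncam1, with 7 and 2 reads at the wavefront against 14 and 15 behind it (log2 fold change -1.28 ± 0.60, edgeR adjusted p = 0.46). St8sia2 passed the filter of the count test through its trailing reads alone. Of the others in that list, Chst10 had 14 reads and St8sia5 had 11 over the 4 libraries. Of 9 genes for sheddases and related proteases, 4 were tested by counts and 0 passed, and limma called 0 of 7. Adam10, a protease that cuts L1cam and Alcam from the cell surface, had 74.9 ± 1.46 scaled CPM at the wavefront and 63.9 ± 7.39 behind it (edgeR adjusted p = 0.903). Bace1, which cuts Chl1, was at 75.4 ± 24.0 scaled CPM at the wavefront and 74.9 ± 6.77 behind it (edgeR adjusted p = 0.95).

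**Figure D4:**
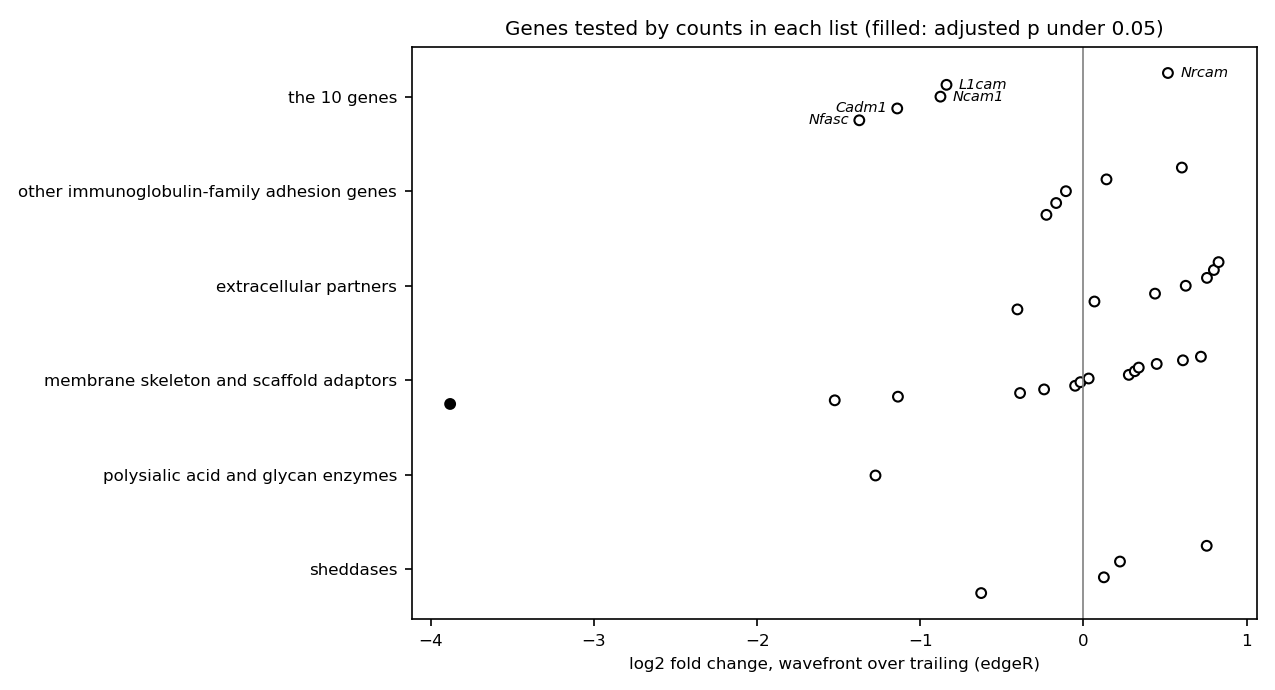
Log2 fold change in edgeR, wavefront over trailing (horizontal axis), of the genes tested by counts in each list, 1 circle a gene, filled where the adjusted p was under 0.05; vertical spread within a list has no meaning. The single filled circle is Dcx, and of the 5 tested adhesion genes Nfasc, Cadm1, Ncam1 and L1cam lie between -1.37 and -0.84 and Nrcam at 0.52.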

How the data were processed

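RNA of 2 wavefront and 2 trailing libraries was compared. The submitters' processing notes name STAR 2.5.2b, FastQC 0.11.9, bcl2fastq 2.17, DESeq2 and featureCounts, with the build GRCm38. Not given in the sources used here were the counting settings for strand, overlaps and multiple hits. Nextera XT, the kit in the labels' protocols, loses the strand. The authors deposited CPM for each library, per the file headers. They also deposited a BaseMean signal, the log2 fold change, its standard error, the Wald score and an unadjusted p-value.

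All CPM values were whole multiples of the CPM of 1 read (100% within 0.01 reads), so reads were recovered. Repeated identifiers (428 rows) were kept once. Rows without a symbol (958) held 1.27 to 2.51% of reads. The design's test was limma 3.58.1 (trend option) on log2(CPM + 1), for genes of mean CPM above 1. Since whole reads were recovered, the count test that the design also named stands beside it: edgeR 4.0.16, TMM, filterByExpr with 10 reads, quasi-likelihood F test. Fold changes in limma are on the log2(CPM + 1) scale, which understates changes of low genes, and they carry the shift of all genes by -0.35. DESeq2 1.42.0 (R 4.3.3) was an alternative. P-values are two-sided, and Benjamini-Hochberg adjustment covered all genes tested. All 3 tools were run on simulated data drawn with a common dispersion and, apart from the changed genes, the same composition in all libraries. That simulation did not cover the uneven share of ribosomal RNA among the libraries here.

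All 10 members are named whatever their values. From each other list, genes past the count test came first, then those with most reads, up to 3 a list. A listed gene that this rule also names is not reported here. The members and lists were chosen with earlier results of these data known. Coordinates and coding sequences are from GENCODE M21 on GRCm38.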

Additional observations from a re-analysis of the deposited data

How the results depend on the processing

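Limma called 0 of the 10 adhesion genes under each of 10 alternatives, but in 5 of these, a pseudocount of 0.5 and each library left out, it called 0 of all genes, so these say nothing of stability. Limma tested 6 to 10 of the 10 genes over these alternatives. The count test had 11 alternatives, DESeq2 and the authors' p-values among them, in which 5 to 10 of the genes were tested. Under 10 of the 11, 0 were called. The exception was the replicate block, where edgeR called 1 of 5, Cadm1 (edgeR adjusted p = 0.0265; 0.0265 to 0.887 over its alternatives). The numbers are not known to pair libraries: deviations of same-numbered libraries from their group means correlated at 0.0589 over 5759 genes. Over all genes, the block gave 52 calls in limma and 61 in edgeR. Limma called 3 genes with a pseudocount of 5, 5 without a filter, 36 with a mean CPM above 10 and 46 after TMM scaling. DESeq2 called 14 and the authors' p-values 13, against 100 in edgeR, which called 40 to 143 with 1 library left out. Limma called 0 to 0 in that case. The cause of these changes was not tested.

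Of 149 member values recomputed, 139 kept sign and side, 1 passed and 9 changed sign, none of them called. Nrcam changed sign in limma after TMM scaling (0.19), without wavefront replicate 2 (0.89) and without trailing replicate 1 (0.02). In edgeR it did so without wavefront replicate 1. With 1 library left out, Nrcam ranged over -1.06 to 0.89 in limma and -0.44 to 0.86 in edgeR. In limma Alcam ranged over -1.55 to 0.59, with 0.29 without trailing replicate 2. Cadm3 ranged over -0.42 to 1.50, Cntn1 over -2.60 to 0.75 and Cntn2 over -1.69 to 0.29. Among the other named genes, none of them called, edgeR with 1 library left out ranged over -0.45 to 0.081 for Mcam, -0.59 to 0.11 for Igsf3 (0.01 without trailing replicate 2), -0.028 to 1.10 for Cd24a, -0.22 to 0.34 for Nrp1, -0.27 to 0.20 for Sdcbp (0.02 without trailing replicate 2) and -0.35 to 0.36 for Bace1. Scaled by library size alone, Nrp1 gave -0.14 and Bace1 -0.10. With 1 library left out, L1cam ranged over -1.80 to -0.62 in limma. Depth limits what can be said of Alcam, Cntn1, Cntn2 and Cadm3.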

Other observations

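Ncam2 and the Cadm and contactin genes outside the 10 were nearly undetected. They were named for their family and not for their values. Over the 4 libraries Cadm2 had 3 reads and Cadm4 had 2, Ncam2, Cntn3 and Cntn6 had 1 read each, and Cntn4 and Cntn5 had 0, which allows up to 3 reads a library.

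Of the ankyrins, which tie the L1 family to the membrane skeleton, Ank1 had 0 reads in all libraries. Ank3 had 6 and 2 reads at the wavefront against 5 and 7 behind it. Ank2 had 10 and 1 reads at the wavefront against 19 and 22 behind it, with a log2 fold change of -1.52 ± 0.54 that did not pass (edgeR adjusted p = 0.185). These genes were chosen after their values were seen, and Ank2 would not have passed the filter of the count test on its wavefront reads.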
